A study of Schizosaccharomyces pombe with 15 samples.

Results

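The copper transport genes described here are 6 of the 5886 genes counted in fission yeast, Schizosaccharomyces pombe. They were chosen by name: the cell-surface copper transporter subunits ctr4 (SPCC1393.10) and ctr5 (SPAC1142.05), the vacuolar copper transporter ctr6 (SPBC23G7.16), the copper-sensing transcription factor cuf1 (SPAC31A2.11c), and the copper chaperones ccs1 (SPAC22E12.04) and atx1 (SPBC1709.10c). Start sites of transcription were mapped with CAGE (cap analysis of gene expression), a method that reads the capped 5′ ends of RNA, so each tag marks the start of 1 RNA and a tag count does not grow with transcript length. All cells were wild type, of strain h-S 972, and every group had 3 liquid cultures. The groups were cells in the synthetic medium EMM deprived of nitrogen for 16 h at 30 °C, by a move to EMM2 that lacked ammonium chloride; cells growing in EMM; cells held at 39 °C for 15 min; cells given 0.5 mM H2O2 for 15 min at 30 °C; and cells growing in the rich medium YES at 30 °C. The sample labels give YES as the medium of the heat and H2O2 cultures, and the protocol calls it YEL.

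Fission yeast takes up copper through a complex of Ctr4 and Ctr5 in the plasma membrane, each needing the other to reach the surface, and moves stored copper out of the vacuole through Ctr6. Cuf1 senses copper scarcity: it binds short promoter sequences named copper signalling elements (CuSEs) and activates the 3 transporter genes when copper is low, and under the same condition it represses the genes of reductive iron uptake. Inside the cell, Ccs1 loads copper into the superoxide dismutase Sod1, and Atx1 hands copper to the Golgi pump Ccc2.

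The 3 transporter genes carry matches to the CuSE upstream of the starts measured here, and those of ctr5 and ctr6 are shown because ctr5 differs greatly between the media and ctr6 does not pass the test there. Each runs 5′ to 3′ from 250 bases before the most used start base to the 50 bases from it on, read from the RefSeq genome, build ASM294v3; capitals mark CuSE matches. The first is ctr5, at chrI:3635159-3635458, plus strand, and the other ctr6, at chrII:2099911-2100210, plus strand.

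ctr5: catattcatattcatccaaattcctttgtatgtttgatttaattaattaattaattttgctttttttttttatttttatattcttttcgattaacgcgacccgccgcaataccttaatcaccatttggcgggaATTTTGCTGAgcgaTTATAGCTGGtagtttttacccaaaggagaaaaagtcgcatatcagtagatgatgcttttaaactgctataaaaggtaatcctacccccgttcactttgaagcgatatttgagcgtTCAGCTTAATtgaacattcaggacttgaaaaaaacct
ctr6: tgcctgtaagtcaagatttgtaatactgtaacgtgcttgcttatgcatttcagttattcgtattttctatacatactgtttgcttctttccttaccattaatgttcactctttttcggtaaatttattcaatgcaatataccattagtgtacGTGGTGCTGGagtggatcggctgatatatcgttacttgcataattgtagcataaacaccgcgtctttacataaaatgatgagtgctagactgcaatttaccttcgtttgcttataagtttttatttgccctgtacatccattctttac

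In the window of the main ctr4 start, named site 2 further on, all 3 matches lay on the strand of the gene, beginning 213, 95 and 84 bases before the start base. In ctr5, 2 matches lay on the strand of the gene, 117 and 103 bases before the start, and 1 on the other strand 13 bases after it. The ctr5 window also held TATAAA on the strand of the gene, 36 bases before the start, which the windows of ctr4 site 2 and ctr6 did not. The single match of ctr6 began 98 bases before its start. Of 5875 windows of the same length, 1 for each gene with resolved start sites, 12.9% held at least 1 match on the strand of the gene, 0.783% at least 2, and 0.0681%, which is 4 windows including that of ctr4, at least 3. On both strands together 26.3% held at least 1. The letters GCTG, the core of every CuSE match, were on either strand of 70.2% of windows and TATAAA of 46.0%. The main window of cuf1 held 1 match, on the other strand and 247 bases before the start, and those of ccs1 and atx1 held none. The sequence TGACGT, found in 6.74% of windows on either strand, occurred in the main window of ccs1 125 bases before its start and in no window of the other 5 genes. The CuSE was defined on fission yeast copper transport promoters, so its presence in them is not independent evidence, and a match of letters is a description, not a measured binding site.

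The 6 genes had 11 of the 13003 clusters of start positions in the deposited data: 1 each for ctr5, ctr6 and atx1, 2 for ccs1, and 3 each for cuf1 and ctr4. The peaks of ctr5 and atx1 fell on the first base of the messenger RNA in the RefSeq annotation, 356 and 140 bases before the start codon. The ctr6 peak lay 112 bases and the main ccs1 peak 69 bases before the start codon, both within the annotated first exon. The cluster peaks of cuf1, on the minus strand of chromosome I, lay 580, 233 and 112 bases before its start codon. The first of them was on the annotated first base, and the last cluster runs on into the coding sequence. No messenger RNA start upstream of the ctr4 start codon is annotated, and the peaks of its 3 clusters lay outside annotated genes on that strand, 774, 508 and 191 bases before the start codon, though the last cluster runs on into the coding sequence; they are called sites 1, 2 and 3. The second ccs1 cluster lay inside the coding sequence and held 3.43% of the gene's tags.

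**Figure D1:**
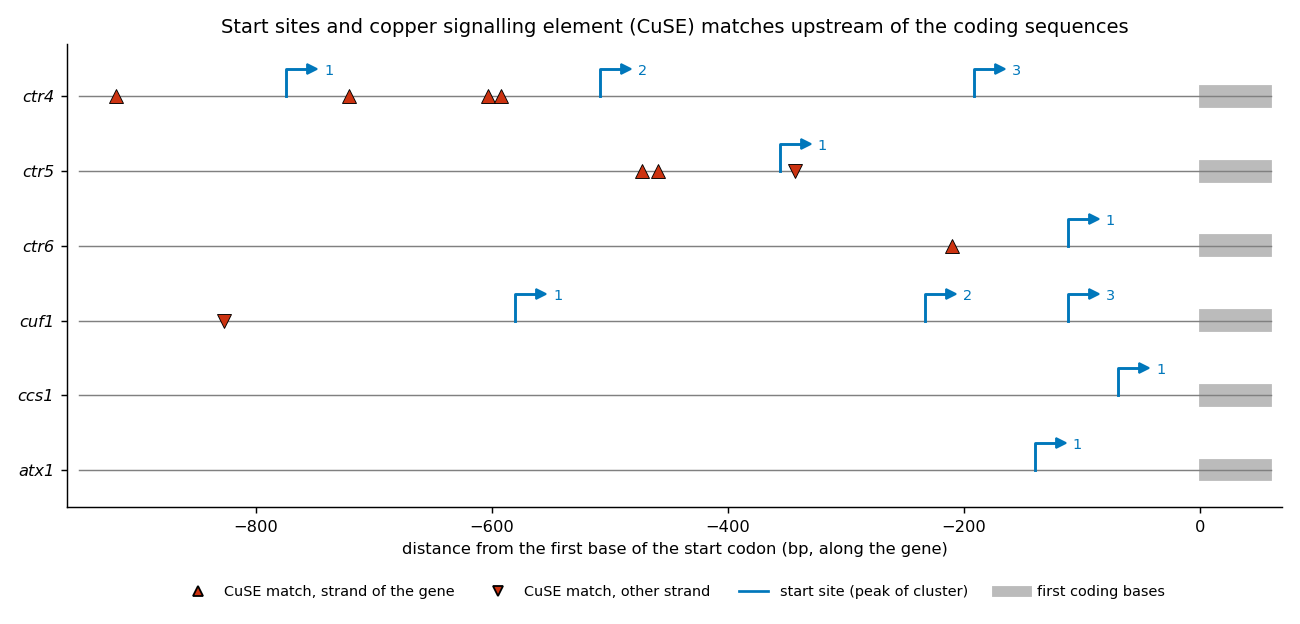
Peaks of the start site clusters (bent arrows, numbered 5′ to 3′) and CuSE matches (upward triangles, strand of the gene; downward triangles, other strand) of the 6 genes, against the distance in base pairs from the start codon. The ctr4 matches 721, 603 and 592 bases before the start codon lie between sites 1 and 2; the second ccs1 cluster, inside the coding sequence, is not drawn.

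Libraries held between 9665353 and 21760682 tags. Values below are CPM (tags scaled to a common library size) after TMM scaling, which adjusts library totals so that most genes do not differ, and log2 changes come from edgeR's quasi-likelihood test fitted to all 15 libraries, with a gene said to have risen or fallen where its Benjamini-Hochberg adjusted p over all 5886 genes was under 0.05. Standard errors (SE) are on the log2 scale. The labelled stresses showed in known responders: hsp104 was between 7794 and 12719 CPM in heat libraries and at most 808 elsewhere, srx1 between 1016 and 1230 in H2O2 libraries and at most 98.0 elsewhere, and mei2 between 5219 and 7525 in nitrogen starvation and at most 166 elsewhere. The EMM marker nmt1 was between 496 and 11239 CPM in the 6 libraries of EMM-based media and at most 3.57 in the others, except for YES replicate 1 with 29.7. Without the TMM factor, on library totals, the median gene had a log2 change of 0.49 in nitrogen starvation against EMM, −0.21 in heat against YES and −0.20 in heat against H2O2, where TMM gave 0.04, −0.03 and −0.00. On library totals, the share of changed genes that were higher was 73.0%, 36.7% and 31.6% in these comparisons, against 52.0%, 52.4% and 56.7% with TMM. The nitrogen starvation and EMM/YES comparisons share the EMM libraries, and the heat, H2O2 and EMM comparisons with YES share the YES libraries. In these bulk cultures, fewer cells with an RNA and less of it per cell cannot be told apart.

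The surface transporter genes separated the libraries by medium. ctr4 fell 56.6-fold and ctr5 22.7-fold in EMM against YES, and the other 4 genes did not pass the test there. ctr4 had 17.2, 11.3 and 9.95 CPM in EMM libraries, against 581, 887 and 700.4 CPM in YES libraries. ctr5 had 8.79, 5.89 and 5.72 CPM in EMM libraries, against 129, 145 and 187 CPM in YES libraries. The groups did not overlap for either gene: the highest EMM library was far under the lowest YES library. The log2 change was −5.82 (SE 0.43, adjusted p 9.75e-08) for ctr4 and −4.51 (SE 0.19, adjusted p 4.24e-10) for ctr5. Both calls held in every alternative run, including a test that asks for a log2 change beyond 1 in size. In EMM against YES 13.2% of all genes were called in either direction, and 2 of the 6 members.

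The other 4 members kept near-equal or overlapping levels in the 2 media. ctr6 had 1.22, 1.17 and 2.69 CPM in EMM, against 1.27, 4.36 and 2.86 CPM in YES, where replicate 1 was as low as the EMM libraries (log2 −0.74, SE 0.47, adjusted p 0.373). cuf1, the regulator of the transporters, had 15.7, 13.2 and 11.1 CPM in EMM, against 12.5, 14.3 and 16.1 CPM in YES (log2 −0.11, SE 0.21, adjusted p 0.815). ccs1 averaged 80.8 ± 4.21 CPM in EMM and 75.4 ± 4.99 CPM in YES, and atx1 37.2 ± 14.4 CPM in EMM and 40.1 ± 3.61 CPM in YES (SD, n = 3 each). Their log2 changes were 0.10 (SE 0.14, adjusted p 0.742) and −0.11 (SE 0.30, adjusted p 0.878), with overlapping libraries for both genes.

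**Figure D2:**
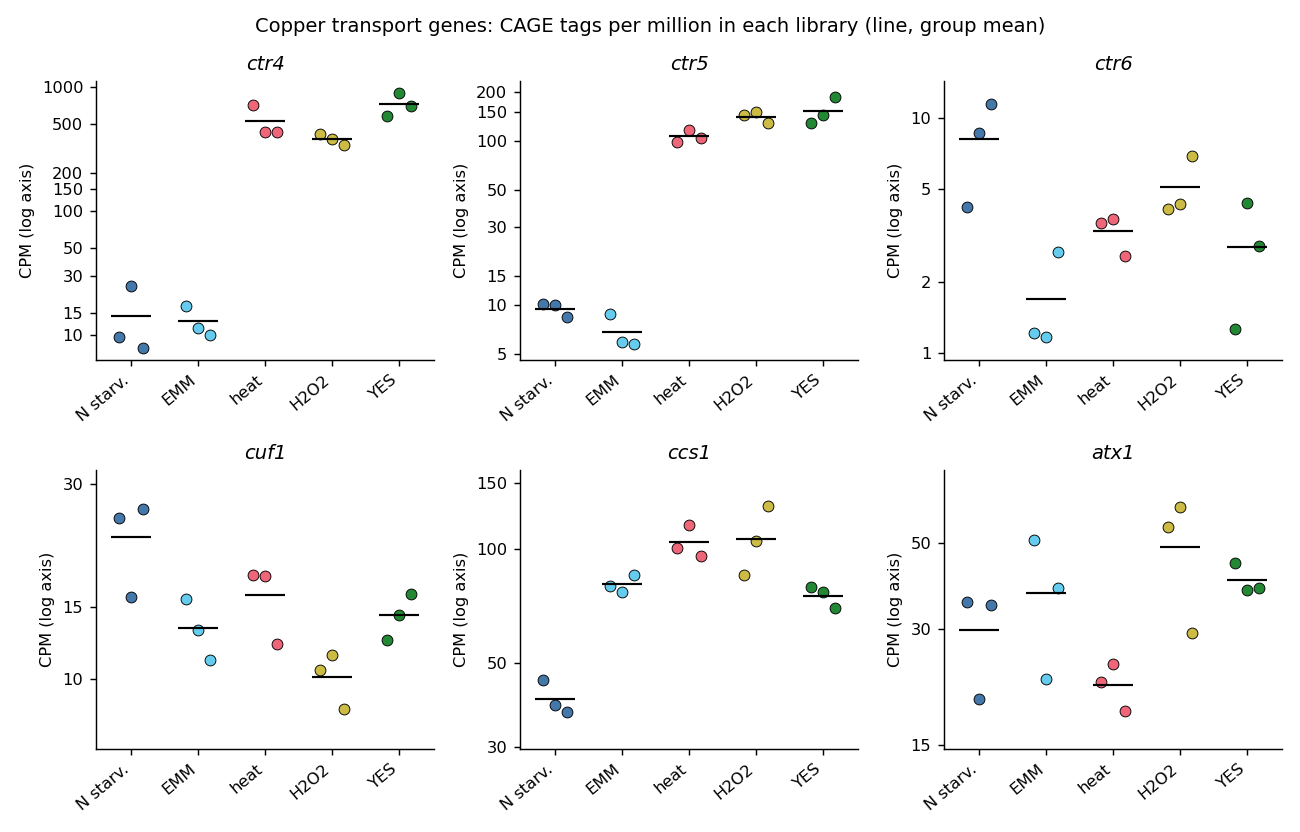
CPM (log axis) of the 6 genes in each library, with the group mean as a line; groups run from nitrogen starvation to YES. For ctr4 and ctr5 the 6 libraries of EMM-based media lie at or below 24.7 CPM and the 9 libraries of YES-based media at or above 99.2 CPM, while ctr6, cuf1, ccs1 and atx1 show no such gap.

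Nitrogen starvation, compared with growth in EMM, raised ctr6, cuf1 and ctr5 and lowered ccs1, while ctr4 and atx1 did not pass the test. That is 4 of 6 members, in a comparison that called 68.6% of all genes. ctr6, the transporter that releases copper from the vacuole, had 4.19, 8.67 and 11.5 CPM in nitrogen starvation, against 1.22, 1.17 and 2.69 CPM in EMM. All 3 starved libraries were above all 3 EMM libraries, and the change was 4.69-fold (log2 2.23, SE 0.44, adjusted p 0.000379). The ctr6 counts behind this were small, 556 tags over the starved libraries against 91 over the EMM libraries. cuf1 had 24.8, 15.9 and 26.1 CPM in nitrogen starvation, against 15.7, 13.2 and 11.1 CPM in EMM, without overlap (log2 0.75, SE 0.21, adjusted p 0.00541).

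ctr5 had 10.0, 9.94 and 8.38 CPM in nitrogen starvation, against 8.79, 5.89 and 5.72 CPM in EMM. The groups overlapped and the change was small (log2 0.48, SE 0.18, adjusted p 0.0276). It was no longer called without nitrogen starvation replicate 1 or 2 (adjusted p 0.0696 and 0.0631) or without EMM replicate 2 or 3 (adjusted p 0.107 and 0.122), nor in a fit of only the 6 libraries compared (adjusted p 0.0871). ctr4 had 9.63, 24.7 and 7.84 CPM in nitrogen starvation, against 17.2, 11.3 and 9.95 CPM in EMM (log2 0.12, SE 0.36, adjusted p 0.772). Replicate 2 alone was high, and without it the ctr4 change was −0.52. The starved cells thus had ctr4 and ctr5 levels of the order seen in EMM, far under those of every YES-based library.

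ccs1, the chaperone of Sod1, fell by 1.01 on the log2 scale in nitrogen starvation (SE 0.14, adjusted p 2.03e-05). It had 45.0, 38.7 and 37.1 CPM in starved libraries, against 79.9, 77.1 and 85.4 CPM in EMM libraries, with no overlap. atx1 had 35.2, 19.7 and 34.5 CPM in nitrogen starvation, against 51.0, 22.2 and 38.2 CPM in EMM, where the groups overlapped and replicate 2 was the lowest of each (log2 −0.31, SE 0.30, adjusted p 0.365); with scaling by library totals the value was 0.15. The calls of ctr6, cuf1 and ccs1 held with any single library left out.

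Heat shock, compared with YES, lowered ctr5 and atx1 modestly and raised ccs1. These 3 of 6 members stand beside 42.3% of all genes called. The ctr4 change was close in size to that of ctr5 but had a larger standard error, and did not pass. ctr4 had 712, 427 and 434 CPM in heat, against 581, 887 and 700.4 CPM in YES, with heat replicate 1 inside the YES range (log2 −0.46, SE 0.34, adjusted p 0.305). ctr5 had 99.2, 118 and 105 CPM in heat, all under the 129, 145 and 187 CPM in YES (log2 −0.52, SE 0.16, adjusted p 0.0188). That call was lost without heat replicate 1 or 3 (adjusted p 0.0682 and 0.0538) or YES replicate 3 (adjusted p 0.1197).

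atx1 had 21.9, 24.3 and 18.3 CPM in heat, all under the 44.3, 37.9 and 38.2 CPM in YES (log2 −0.90, SE 0.31, adjusted p 0.0289). Without heat replicate 1 or 3 the adjusted p was 0.0682 or 0.104, and without YES replicate 1, 2 or 3 it was 0.0854, 0.0541 or 0.0585, so the atx1 call held only without heat replicate 2. ccs1 had 101, 116 and 96.1 CPM in heat, all above the 79.4, 77.1 and 69.8 CPM in YES (log2 0.47, SE 0.14, adjusted p 0.0158). The ccs1 call was lost without heat replicate 2 (adjusted p 0.0666), without YES replicate 3 (adjusted p 0.0633) and with library totals (log2 0.30, adjusted p 0.137). ctr6 and cuf1 had log2 changes of 0.19 (SE 0.46, adjusted p 0.778) and 0.15 (SE 0.21, adjusted p 0.610), and both values were slightly negative with library totals, at −0.01 and −0.02.

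Hydrogen peroxide, compared with YES, raised ccs1, the 1 member called of 6, where 20.05% of all genes were called. ccs1 had 85.2, 105 and 129.9 CPM in H2O2, all above the 79.4, 77.1 and 69.8 CPM in YES (log2 0.50, SE 0.14, adjusted p 0.0207). The call was lost without H2O2 replicate 3 (log2 0.34, adjusted p 0.109) and without YES replicate 2 or 3 (adjusted p 0.0540 and 0.0662). ctr4 had 413, 375 and 340.1 CPM in H2O2, against 581, 887 and 700.4 CPM in YES. Its groups did not overlap, but the change missed the threshold (log2 −0.94, SE 0.34, adjusted p 0.0694); it passed with DESeq2 (adjusted p 0.0326) and when only the 6 libraries compared were fitted (adjusted p 0.00641). ctr5 had 144, 151 and 128 CPM in H2O2, inside or near the YES range (log2 −0.13, SE 0.16, adjusted p 0.674). ctr6 averaged 5.11 ± 1.57 CPM in H2O2 and 2.83 ± 1.55 CPM in YES, cuf1 10.1 ± 1.55 CPM in H2O2 and 14.3 ± 1.82 CPM in YES, and atx1 48.8 ± 17.3 CPM in H2O2 and 40.1 ± 3.61 CPM in YES (SD, n = 3 each), and none of these passed.

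Set directly against each other, heat and H2O2 differed in cuf1 and atx1, 2 of 6 members beside 27.7% of all genes. atx1 had 21.9, 24.3 and 18.3 CPM in heat, against 55.2, 62.0 and 29.3 CPM in H2O2, without overlap but with H2O2 replicate 3 near the heat libraries (log2 −1.18, SE 0.31, adjusted p 0.00957). Without H2O2 replicate 2 the adjusted p was 0.0562. cuf1 had 18.004, 17.8 and 12.2 CPM in heat, against 10.5, 11.4 and 8.41 CPM in H2O2, also without overlap (log2 0.66, SE 0.22, adjusted p 0.0323). This call was lost without heat replicate 1 or 2 (adjusted p 0.110 and 0.104), without H2O2 replicate 1 or 3 (adjusted p 0.0613 and 0.112), with library totals (adjusted p 0.141) and in a fit of only the 6 libraries compared (adjusted p 0.0504). ctr4, ctr5, ctr6 and ccs1 had log2 differences of 0.48, −0.39, −0.65 and −0.03, none past the threshold; that of ctr5 passed with library totals (adjusted p 0.0192) and in a fit of only the 6 libraries (adjusted p 0.0478).

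**Figure D3:**
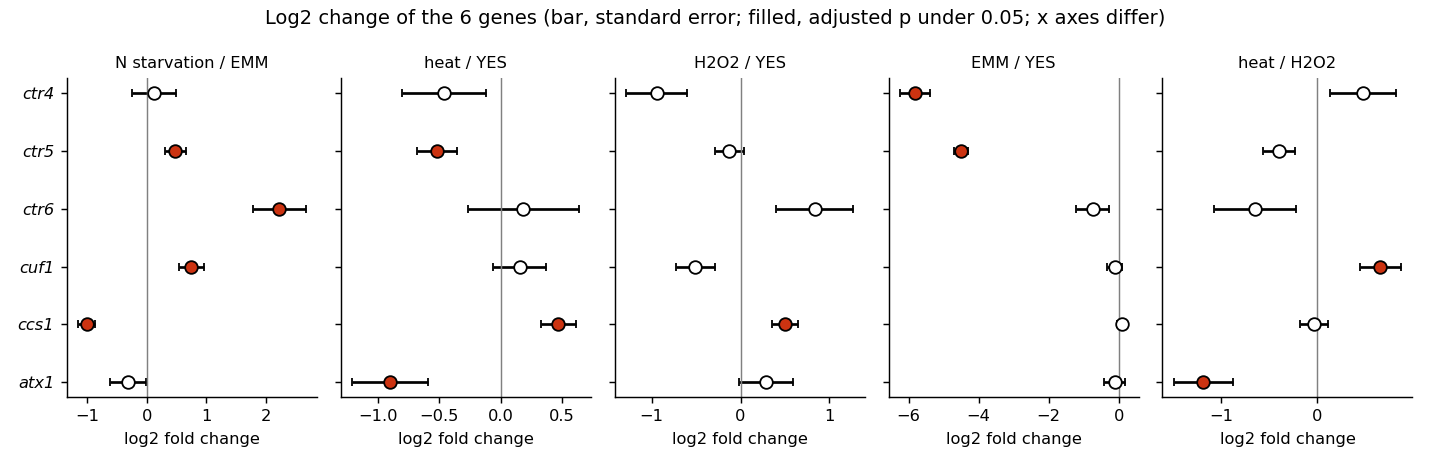
Log2 change of the 6 genes in the 5 comparisons, the first-named group over the second, with the standard error as a bar; filled points passed an adjusted p of 0.05, and each panel has its own axis. The ctr4 and ctr5 changes in EMM against YES, −5.82 and −4.51, exceed in size those of all 6 genes in the other comparisons.

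Ranked by mean CPM, ctr4 was highest in YES and then in heat, which overlapped, followed by H2O2, which lay under both; nitrogen starvation and EMM came last and overlapped. ctr5 was highest in YES and H2O2, which overlapped, then heat, then nitrogen starvation and EMM, which overlapped. ctr6 was highest in nitrogen starvation and H2O2, which overlapped, and lowest in EMM. cuf1 was highest in nitrogen starvation and lowest in H2O2, with every group overlapping the next in the order. ccs1 was highest in H2O2 and heat, which overlapped, then EMM and YES, which overlapped, and lowest in nitrogen starvation, apart from all the rest. For ccs1, H2O2 also overlapped EMM, with H2O2 replicate 1 at 85.2 CPM under EMM replicate 3 at 85.4 CPM. atx1 was highest in H2O2 and lowest in heat, again with each group overlapping its neighbour.

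The ctr4 start sites changed with the medium. Sites 1, 2 and 3 lie on the plus strand of chromosome III at 817665-817756, 817799-818121 and 818145-818966, the last running into the coding sequence.

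From site 1 to site 2 the peaks are 266 bases apart, and from site 2 to site 3 317 bases. The 3 CuSE matches upstream of site 2 begin 53, 171 and 182 bases after the peak of site 1, so an RNA begun at site 1 would run through them if it reached ctr4. How far RNAs from site 1 run was not measured, since CAGE reads only their 5′ ends. 1 other match lies 144 bases before site 1.

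Site 1 had 102, 72 and 97 tags in nitrogen starvation libraries and 21, 35 and 30 tags in EMM libraries. It had 0, 0 and 1 tag in heat libraries, and 0 in all 3 H2O2 and all 3 YES libraries. With a floor of 3 tags per library, the 0 tags allow a share of ctr4 tags of up to 0.0535%, 0.0373% and 0.0410% in H2O2 libraries and of up to 0.0596%, 0.0301% and 0.0223% in YES libraries. These limits and the intervals below cover counting error only. The site 1 share of ctr4 tags was 8.71%, 18.04% and 15.0% in EMM libraries; the exact 95% binomial interval of the lowest, replicate 1, ran from 5.47% to 13.0%. In nitrogen starvation the share was 41.5%, 16.8% and 47.5%, with replicate 2, the library of high ctr4, inside the EMM range.

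Site 2, which held 97.8% of all ctr4 tags of the series, made up 98.6%, 98.9% and 98.7% of ctr4 tags in YES libraries and 83.4%, 71.1% and 69.0% in EMM libraries. In level it had 14.7, 8.42 and 7.05 CPM in EMM, against 566, 870.4 and 683 CPM in YES (log2 −6.15, SE 0.58, adjusted p 4.99e-06). Site 3 had 1.39, 1.28 and 1.64 CPM in EMM, against 8.10, 9.90 and 8.77 CPM in YES (log2 −2.63, SE 0.37, adjusted p 6.03e-05). Site 1 went the other way: its mean of 1.73 CPM in EMM was at least 6.83-fold higher than in YES, where the floor of 3 counts per library averages 0.254 CPM (adjusted p 3.60e-06). With ctr5's single site, 4 of the 11 member clusters were called in EMM against YES, beside 13.7% of all clusters.

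The share of starts within a gene was tested with edgeR's diffSpliceDGE over 1693 genes that had at least 2 clusters with 10% or more of the tags in some group; of the members, ctr4 and cuf1 qualified. In EMM against YES, ctr4 changed its start usage (adjusted p 1.64e-13) and cuf1 did not pass, where 18.5% of genes did. Within ctr4, the usage of site 1 (adjusted p 1.22e-13) and site 3 (adjusted p 2.10e-06) rose relative to the gene, and that of site 2 did not pass (adjusted p 0.770). Site 3 reached the 10% share only in EMM, and site 1 only in EMM and nitrogen starvation, so the filter itself favoured both rises. The test sets a site against its whole gene, most of which is site 2, so site 2 could deviate little. The site 2 share was 98.6% to 98.9% in YES libraries and 69.0% to 83.4% in EMM libraries.

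**Figure D4:**
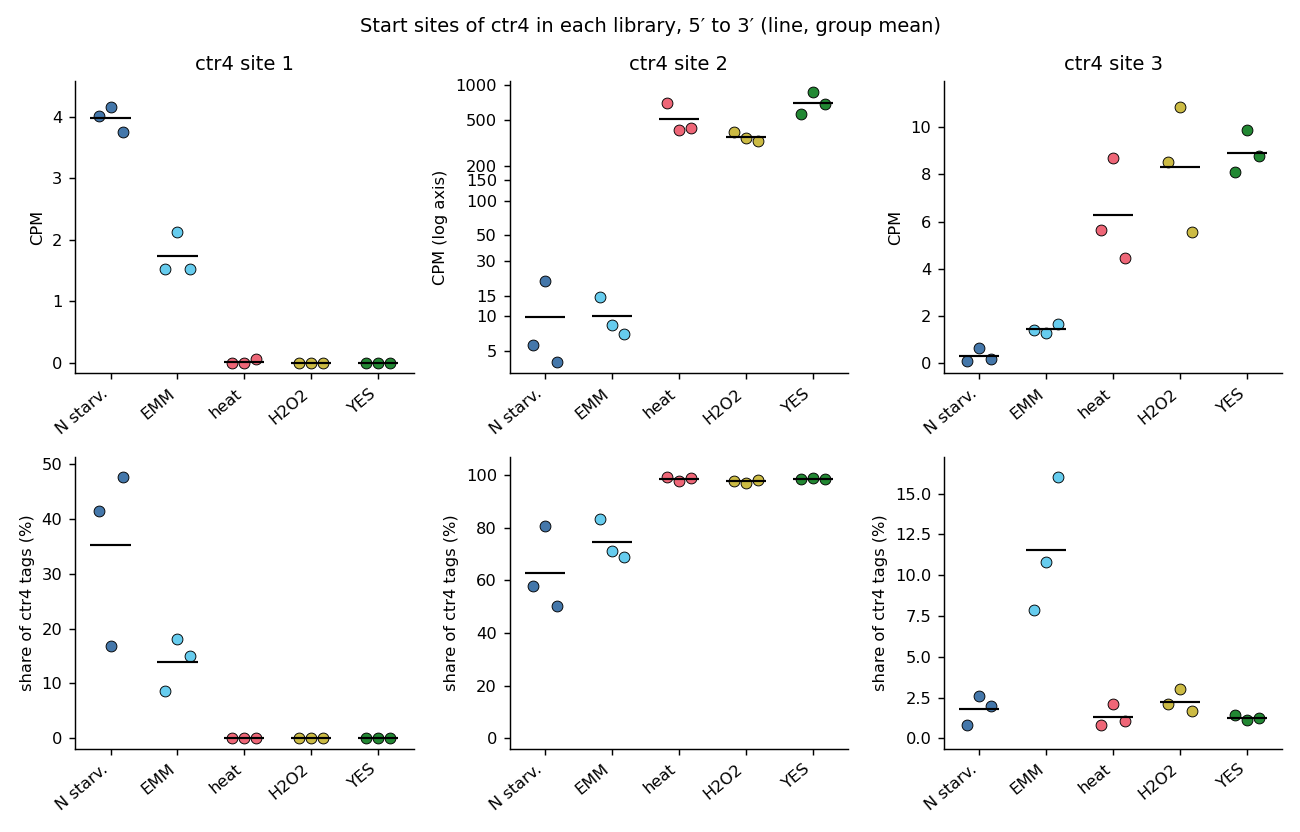
CPM (upper row; log axis for site 2) and share of ctr4 tags in percent (lower row) of the 3 ctr4 start sites in each library, with the group mean as a line. Site 1 is at 1.53 CPM or more in the 6 libraries of EMM-based media and at most 0.0685 CPM in the others, while site 2 is at most 19.96 CPM in EMM-based and at least 329.6 CPM in YES-based libraries.

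Nitrogen starvation changed the flanking ctr4 sites in opposite directions. Site 1 had 4.02, 4.17 and 3.76 CPM in starved libraries, against 1.53, 2.14 and 1.53 CPM in EMM libraries, without overlap (log2 1.19, SE 0.26, adjusted p 0.000957). Site 3 had 0.0787, 0.636 and 0.155 CPM in starved libraries, against 1.39, 1.28 and 1.64 CPM in EMM libraries, also without overlap, though the starved counts were only 2, 11 and 4 tags (log2 −2.46, SE 0.51, adjusted p 0.000404). Site 2 had 5.59, 19.96 and 3.99 CPM in starved libraries and overlapped the EMM libraries (log2 −0.04, SE 0.49, adjusted p 0.944). The ctr4 usage test passed (adjusted p 0.00101, beside 59.5% of genes), led by site 3 (adjusted p 0.000591), while site 1 just missed (adjusted p 0.0511). Site 3 entered this test only through its share in EMM, the reference group, so a fall from EMM was favoured beforehand. Without EMM replicate 3 the ctr4 usage call was lost, leaving 0 members.

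Over all members, 8 of 11 clusters were called in nitrogen starvation against EMM, beside 66.9% of clusters. cuf1 rose at site 1, its main start on the minus strand of chromosome I at 409779-409927, with 19.7, 12.6 and 22.1 CPM in starved libraries against 12.8, 10.9 and 7.82 CPM in EMM libraries, which overlapped (log2 0.80, SE 0.24, adjusted p 0.00731). The 2 ccs1 clusters fell together, by 1.03 and 1.32 on the log2 scale. In heat against YES, 4 of 11 clusters were called, beside 33.6% of clusters: those of ctr5 and atx1, the main ccs1 site, and cuf1 site 3 at chromosome I 409035-409398. The cluster of cuf1 site 3 runs on into the coding sequence. cuf1 site 3 had 4.89, 6.12 and 4.46 CPM in heat, against 3.31, 3.54 and 2.92 CPM in YES (log2 0.67, SE 0.21, adjusted p 0.0207), and lost the call without heat replicate 2 (adjusted p 0.102) or YES replicate 3 (adjusted p 0.0909). In H2O2 against YES, 2 of 11 were called, beside 15.4%, and in heat against H2O2, 3 of 11, beside 25.3%.

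cuf1 site 2 was the least used of its 3 starts and differed most between the stresses. It had 11, 20 and 12 tags in heat, against 2, 5 and 4 tags in H2O2 (log2 2.47, SE 0.46, adjusted p 0.00046), and the 2, 5 and 4 tags in H2O2 stood against 7, 3 and 15 tags in YES (log2 −1.68, SE 0.51, adjusted p 0.0297). The second of these calls held only without YES replicate 2, the adjusted p being between 0.0591 and 0.195 without each of the other 5 libraries. Usage of cuf1 starts as a whole passed in no comparison. ctr4 and cuf1, the only members tested, did not change usage in heat against YES, H2O2 against YES or heat against H2O2, where 32.01%, 12.05% and 30.5% of tested genes did. With a minimum share of 5%, ccs1 passed in heat and in H2O2 against YES, and cuf1 in heat against H2O2. The clusters this added, the second of ccs1 and site 2 of cuf1, reached 5% only in YES and only in heat, so the filter itself favoured these calls.

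Since Ctr4 and Ctr5 work as 1 complex, the ratio of their tags, which needs no scaling of libraries, was compared. ctr4 had 0.961, 2.49 and 0.936 tags per ctr5 tag in nitrogen starvation, 1.96, 1.92 and 1.74 in EMM, 7.17, 3.62 and 4.14 in heat, 2.87, 2.49 and 2.65 in H2O2, and 4.50, 6.12 and 3.75 in YES. The ratio was lower without overlap in EMM than in YES and in H2O2 than in YES, and higher without overlap in heat than in H2O2. Each of these 3 had p = 0.1 in a two-sided exact permutation test, the smallest that 3 against 3 libraries allow (0.167 adjusted over 5 comparisons), so none can pass 0.05. The differences in mean log2 ratio were −1.33, −0.82 and 0.84. Nitrogen starvation against EMM overlapped (exact permutation p = 0.4), as did heat against YES (exact permutation p = 1).

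Likeness of pattern was measured as the root mean square (RMS) difference of log2 CPM over the 15 libraries, after centring each gene on its own mean. ctr5 was second nearest to ctr4 of all genes, at 0.823, and ctr4 eighth nearest to ctr5; ctr6 ranked 3839th from ctr4 and 3657th from ctr5. The nearest to ctr4 was the noncoding RNA SPNCRNA.888 at 0.584 and the third SPNCRNA.1301 at 0.878. Nearest to ctr5 were SPNCRNA.666 at 0.393, SPNCRNA.1301 at 0.545 and SPNCRNA.1596 at 0.636. SPNCRNA.888, SPNCRNA.1301 and SPNCRNA.1596 were sparse in EMM-based media, SPNCRNA.888 with 14 tags over the nitrogen starvation and 16 over the EMM libraries. SPNCRNA.666 had 206 tags over the nitrogen starvation and 126 over the EMM libraries. For ccs1 the nearest were pup2 at 0.113, utr4 at 0.157 and pre8 at 0.162, of which pup2 and pre8 encode subunits of the proteasome. The nearest to ctr6, cuf1 and atx1 were SPAC186.04c at 0.449, SPBC13G1.05 at 0.220 and SPCC794.06 at 0.237, followed by glm1 and SPNCRNA.1054, by tbc1 and rgp1, and by tif225 and SPAC806.02c.

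A lncRNA, SPNCRNA.923, is counted on the strand opposite ctr5. It had 21.3, 21.8 and 21.9 CPM in nitrogen starvation, against 0.715, 0.933 and 1.34 CPM in EMM (log2 4.40, SE 0.34, adjusted p 3.73e-08). All starved libraries were above every ctr5 level measured in EMM-based media. Most of its tags came from a minus-strand cluster at chromosome I 3636031-3636451, opposite the 3′ part of ctr5, with 20.1, 19.4 and 16.9 CPM in nitrogen starvation against 0.437, 0.671 and 1.02 CPM in EMM. That cluster lies outside the annotated genes of its strand, SPNCRNA.923 included. The cluster inside the annotated SPNCRNA.923, at 3635753-3635867, had 1.30, 2.43 and 5.12 CPM in nitrogen starvation, under the ctr5 level of each library. In EMM it had 0.292, 0.305 and 0.358 CPM.

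Other genes of copper and metal handling were taken from 5 lists, of which 19 of 23 names were found in the count table. In EMM against YES, where 13.2% of all genes were called, 3 of these 19 rose and 2 fell, with a median log2 change of −0.09, against −0.00 over all genes. sod1, the copper/zinc superoxide dismutase, had 643 ± 219 CPM in EMM and 272 ± 59.0 CPM in YES (log2 1.24, SE 0.30, adjusted p 0.00994), though the call was lost without EMM replicate 1 (adjusted p 0.0519) or YES replicate 1 (adjusted p 0.0657). mfc1, a copper transporter of the forespore membrane, rose to 2.67 ± 0.402 CPM in EMM, against 1.22 ± 0.532 CPM in YES (SD, n = 3 each; adjusted p 0.0333), a call lost without EMM replicate 2 or 3 or YES replicate 1 or 2 (adjusted p 0.0947, 0.1204, 0.114 and 0.133). The metallothionein gene zym1 fell by 1.35 (SE 0.22, adjusted p 0.000452). The 3 genes of reductive iron uptake did not move together: the ferric reductase frp1 fell by 2.45 (SE 0.31, adjusted p 4.39e-05), the permease fip1 rose by 0.60 (SE 0.15, adjusted p 0.0144, and between 0.0504 and 0.0672 without EMM replicate 3, YES replicate 1 or YES replicate 3), and the ferroxidase fio1 did not pass, with 168 ± 39.9 CPM in EMM and 177 ± 34.0 CPM in YES. ccc2, cao1, cao2, cox17 and sco1 did not pass in this comparison.

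In nitrogen starvation against EMM, where 68.6% of all genes were called, 1939 of 5886 of them lower, 6 of the 19 rose and 6 fell, with a median log2 change of −0.20, against 0.04 over all genes. Of 5 measured genes of copper delivery in mitochondria, 4 fell: cox17 by 1.67, cmc2 by 1.23, sco1 by 1.03 and cmc1 by 0.45 on the log2 scale; the list median was −1.03. The cmc1 call was lost without nitrogen starvation replicate 2 or 3 or EMM replicate 1 (adjusted p 0.122, 0.113 and 0.1199), and cmc1 was at 0.00 with library totals. The copper amine oxidase gene cao1 rose to 845 ± 299 CPM in nitrogen starvation, against 72.6 ± 11.4 CPM in EMM (SD, n = 3 each; log2 3.54, SE 0.21, adjusted p 2.98e-09), and cao2 rose by 2.85 (SE 0.13, adjusted p 1.59e-10). Of 6 measured genes of metal binding and detoxification, 3 rose and 2 fell. zym1 rose to 787 ± 99.4 CPM in nitrogen starvation, against 16.7 ± 4.22 CPM in EMM (SD, n = 3 each; log2 5.56, SE 0.26, adjusted p 1.64e-10). Next in size in that list, hmt2 fell by 1.37 (SE 0.21) and hmt1 rose by 0.815 (SE 0.20). ccc2, mfc1 and sod1 did not pass.

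Under heat against YES, 4 of the 19 rose and 4 fell, beside 42.3% of all genes called (median −0.08, against −0.03 over all genes), and all 3 iron uptake genes fell, fip1 by 2.72, fio1 by 2.38 and frp1 by 1.49 on the log2 scale. zym1 rose to 592 ± 151 CPM in heat, against 42.7 ± 6.41 CPM in YES, and cox17 to 8.99 ± 1.54 CPM in heat, against 4.75 ± 0.306 CPM in YES (SD, n = 3 each; adjusted p 6.20e-09 and 0.00176). In heat, cao2 rose by 0.47 (SE 0.13, adjusted p 0.00988), and by 0.39 to 0.55 with 1 library left out. Under H2O2 against YES, 5 rose and 2 fell, beside 20.05% of all genes called (median 0.13, against −0.02 over all genes). Among the metal binding and detoxification genes, zym1 rose by 1.45, gcs1, which makes the first step of glutathione synthesis, by 0.99, and gsa1, which makes the next, by 0.71. The ferroxidase fio1, of the copper enzyme and iron uptake lists, fell by 0.81, and cao2, of the copper enzyme list, rose by 0.72 (SE 0.13, adjusted p 0.000817). The frp1 rise of 0.84 (adjusted p 0.0382) and the fall of SPAC3H1.10, named pcs2, by 0.54 (adjusted p 0.0309) were lost in each of the 6 fits that leave out 1 library, with an adjusted p of 0.0592 to 0.141 for frp1 and 0.0532 to 0.137 for pcs2. In heat against H2O2, 3 of the 19 were higher and 5 lower, beside 27.7% of all genes called (median −0.11, against −0.00 over all genes), zym1 by 2.34 among the higher and fip1, frp1 and fio1 by −2.53, −2.33 and −1.57 among the lower.

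**Figure D5:**
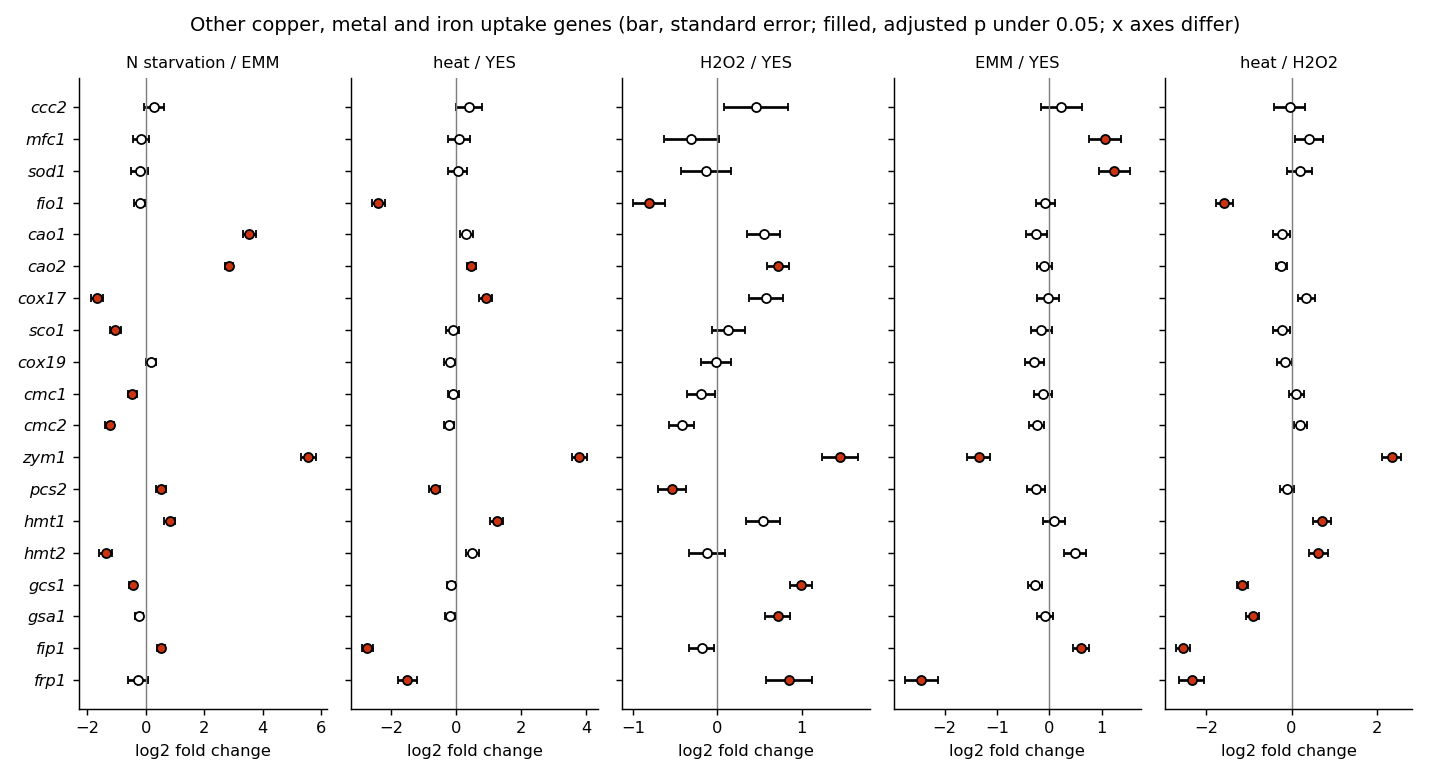
Log2 change of 19 other copper, metal and iron uptake genes in the 5 comparisons, the first-named group over the second, with the standard error as a bar; filled points passed an adjusted p of 0.05, and each panel has its own axis. zym1 has the highest value in nitrogen starvation against EMM (5.56) and in heat against YES (3.80).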

How the data were processed

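CAGE tags of 15 libraries, 3 in each of 5 groups, were analysed from the tables the authors deposited. The sample numbers name parallel cultures, and p-values measure the spread between these cultures. The deposited tables hold whole-number tag counts per gene and per start site cluster, log2 values per gene that the authors had normalized, and cluster positions with a mean CPM over libraries. CASAVA 1.6, Bowtie 0.12.7 and build ASM294v2 are named, per the submitters' processing notes; clustering, gene assignment and normalization steps are not given in the sources used here.

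Counts were tested with edgeR 4.0.16 (robust quasi-likelihood, TMM, filterByExpr, which removed 0 genes) in R 4.3.3, in 1 fit over 15 libraries with 10 residual degrees of freedom and Benjamini-Hochberg adjustment over 5886 genes or 13003 clusters, and start usage with diffSpliceDGE. Both steps were tested on simulated data. CPM values were computed from the deposited counts. Clusters were assigned to genes as runs of neighbouring clusters on 1 strand whose counts sum to the gene's in all 15 libraries (5875 of 5886 genes). Reference build ASM294v3 was used after a check of the deposited cluster peaks: 85.1% of 13003 had a pyrimidine before a purine start, against 3.92% and 3.63% after shifts of 1 base either way, and 82.5% to 85.3% within 100 kb of each member. The step was absent at the peaks of ctr4 sites 2 and 3 (GG) and of cuf1 site 2 (TC), so distances given for these sites are counted from such a base. SPAC3H1.10 is named pcs2 in the reference. The CuSE and 3 other motifs spelled out above were searched on both strands of 300-base windows; the CuSE is a consensus with ambiguous letters around GCTG. Exact intervals are Clopper-Pearson, from SciPy 1.17.1.

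Alternatives were library totals, median-ratio size factors, no filter, DESeq2 1.42.0, limma 3.58.1 on the authors' log2 values, the 6 libraries compared, a minimum log2 change of 1, the replicate block, other usage shares, another prior count and each library left out in turn. The members and lists were chosen with earlier results of these data known. Named are the 6 members with their clusters, the 3 genes nearest to each in pattern (prior count 0.5), 10 further copper genes fixed by name, of which cuf2 was not found in the count table, and other listed genes among the 3 largest called changes of their list. SPNCRNA.923 was added after its values were seen. The sequence upstream of ctr4 is not reported here.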

Additional observations from a re-analysis of the deposited data

Results flagged for a closer look

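Heat and H2O2 differed by the direct comparison (edgeR's quasi-likelihood test, log2 of heat over H2O2) in several genes described above. For the members the differences were 0.66 for cuf1 and −1.18 for atx1, and for their start sites 2.47 at cuf1 site 2, 0.62 at cuf1 site 3 and −1.17 at the atx1 site. For the other listed genes they were 2.34 for zym1, 0.71 for hmt1, which carries metal-binding peptides into the vacuole, 0.63 for hmt2, −0.91 for gsa1, −1.15 for gcs1, −1.57 for fio1, −2.33 for frp1 and −2.53 for fip1. The hmt2 call was lost in 5 of the 6 fits that leave out 1 library, with an adjusted p between 0.0765 and 0.206 in those, and also with library totals (0.153), with only the 6 libraries compared (0.0690) and on the authors' log2 values (0.0602); the cuf1 site 3 call was lost in 5 of 6 (0.0552 to 0.158) and with library totals (0.171). The hmt1 call was lost without heat replicate 3, H2O2 replicate 1 or H2O2 replicate 2 (adjusted p 0.0764, 0.0648 and 0.0614) and with library totals (0.0724).

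SPNCRNA.923, the RNA counted opposite ctr5, stood out in data beyond the members: it averaged 21.6 CPM in nitrogen starvation, against 0.997 CPM in EMM, and was at most 0.581 CPM in the heat, H2O2 and YES libraries. Most SPNCRNA.923 tags in nitrogen starvation came from the cluster outside its annotated span. ctr5 itself averaged 9.45 CPM in nitrogen starvation and 6.80 CPM in EMM. Any relation between the 2 strands was not tested.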

How the results depend on the processing

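Members called numbered 4 in nitrogen starvation relative to EMM, then 3 for heat and 1 for H2O2, each relative to YES, 2 for EMM relative to YES, and 2 for heat relative to H2O2; lists of 5 values below follow this order. Asking for a log2 change beyond 1 left 1, 0, 0, 2 and 0 members, 4, 3, 0, 1 and 4 of the other copper and metal genes, and 1438, 494, 183, 176 and 309 of all genes; ctr6 was the member left in nitrogen starvation. H2O2 against YES had 2 members called with only the 6 libraries compared and 2 with DESeq2. A minimum share of 20%, which ctr4 site 3 reached in no group, left 0 members with changed start usage in nitrogen starvation. A minimum of 5% gave 1 member each in heat against YES, H2O2 against YES (ccs1 in both) and heat against H2O2 (cuf1). The clusters added by it reached 5% only in YES for ccs1 and only in heat for cuf1, so the filter favoured these calls. The ctr4 to ctr5 ratio in EMM against YES was −1.74 with the main start cluster only. With 1 library left out, the members called ranged from 0 to 2 in heat against YES, 0 to 1 in H2O2 against YES and 1 to 2 in heat against H2O2; member clusters from 0 to 3 in heat against YES and 0 to 1 in H2O2 against YES; members with changed usage in nitrogen starvation from 0 to 1; and other genes in EMM against YES from 2 to 4.

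Some log2 changes turned sign. With library totals they were 0.15 for atx1, 0.0047 for cmc1 and 0.015 for gcs1 in nitrogen starvation, and −0.0063 for ctr6 and −0.025 for cuf1 in heat against YES; gcs1 was 0.0098 on the authors' log2 values. With 1 library left out, ctr4 in nitrogen starvation ranged from −0.52 to 0.44, ctr6 in heat against YES from −0.12 to 0.58, ctr5 in H2O2 against YES from −0.23 to 0.071, cuf1 and atx1 in EMM against YES from −0.24 to 0.0041 and from −0.41 to 0.15, and ccs1 in heat against H2O2 from −0.17 to 0.13. The cause was not tested.

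In no comparison did all 3 pairs of same-numbered cultures deviate together with a correlation over 0.1 (−0.22 to 0.31 over all pairs; 0.068, 0.31 and 0.12 in nitrogen starvation with EMM), so the numbers were not taken as pairs. The replicate block gave 4, 3, 1, 2 and 2 members, 8, 4, 2, 4 and 3 member clusters, 1, 0, 0, 1 and 0 members with changed usage, 12, 8, 7, 5 and 7 other genes (hmt2 lost its call in heat against H2O2, adjusted p 0.0589) and 3978, 2402, 1102, 716 and 1522 of all genes. With a prior count of 5, 16 of 18 nearest genes by pattern were kept. Depth limits ctr6, with 91 to 556 tags per group, cuf1 site 2 and the ctr4 sites in EMM-based media.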

Other observations

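A start cluster inside the 3′ end of ctr5 and on its own strand, at chromosome I 3636443-3636513, is counted with the next gene, SPAC1142.06. It had 1.102, 1.22 and 1.24 CPM in nitrogen starvation, against 0, 0.0610 and 0.0511 CPM in EMM, where the counts come to 81 tags over the starved and 2 over the EMM libraries (log2 4.65, SE 0.65, edgeR adjusted p 5.46e-06). A second cluster of SPAC1142.06, at chromosome I 3636553-3637619, begins within the last bases of ctr5 and went the other way, with 126, 108 and 104 CPM in nitrogen starvation, against 370.5, 267 and 342 CPM in EMM (log2 −1.54, SE 0.17, edgeR adjusted p 3.22e-07). Opposite ccs1, a minus-strand cluster at chromosome I 5025071-5025141 had 0.945, 2.03 and 1.90 CPM in nitrogen starvation, against 0.802, 0.854 and 1.12 CPM in EMM, which did not pass (adjusted p 0.101). Opposite cuf1, a plus-strand cluster at chromosome I 409644-409720 stayed between 0.778 and 1.65 CPM in all 15 libraries.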
